A study of Homo sapiens with 6 samples.

Results

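The genes described here are beta-catenin (CTNNB1) and the TCF/LEF factors it binds on DNA (TCF7, TCF7L1, TCF7L2 and LEF1). With them stand genes that restrain the pathway or its targets (AXIN1, AXIN2, SP5, RNF43 and ZNRF3). All these genes were taken by symbol, as 10 of the 23346 gene rows of the RPKM table, and all 10 passed the filter on low values. RPKM is the number of reads scaled by gene length and by library depth, so levels can be set side by side between genes. The cells were of KhES-1, a human embryonic stem cell line that is long established, and grew on a laminin fragment coated at 0.5 µg per cm2. They were kept in AKIT medium (3 libraries) or in Essential 8, called E8 (2 libraries of the 3 in the series, replicate 3 not analysed here). E8 is chemically defined and supplies the growth factors FGF2 and TGF-beta. AKIT is described as lacking both and holding small molecules that inhibit GSK3, DYRK kinases and calcineurin. All libraries came from the same line. Whether replicates were grown separately is not stated in the labels, so the p-values here reflect only how far these libraries spread, possibly for technical reasons.

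Beta-catenin works both at cell contacts, bound to cadherins, and in the nucleus. Without a Wnt signal a complex built on AXIN1 or AXIN2 lets GSK3 phosphorylate it, and it is degraded, while a Wnt ligand or a GSK3 inhibitor lets it accumulate and bind TCF/LEF factors. In pluripotent cells TCF7L1 is known mainly as a repressor, TCF7 and LEF1 mainly as activators, and AXIN2, SP5, RNF43 and ZNRF3 are known as genes that beta-catenin induces and that then dampen the signal.

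The stretches before the start sites of SP5, TCF7L1 and TCF7 are shown because these genes had the largest differences between media among the 10. Each is the 250 bases before a start in RefSeq's annotation of GRCh38.p14, on the + strand, with matches to the core sequence bound by TCF/LEF factors in capitals. The motif searched was CTTTG followed by a pair of bases that are each A or T, on both strands, and overlapping matches would have been counted separately. TCF7 has a second, downstream start, from which shorter forms without the beta-catenin binding part are known to arise.
SP5 (chr2:170715087-170715336): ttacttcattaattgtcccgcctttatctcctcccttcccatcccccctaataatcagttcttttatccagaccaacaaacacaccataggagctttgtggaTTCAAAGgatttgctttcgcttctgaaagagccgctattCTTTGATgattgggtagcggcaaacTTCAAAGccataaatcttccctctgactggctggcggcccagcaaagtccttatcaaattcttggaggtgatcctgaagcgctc
TCF7L1 (chr2:85133142-85133391): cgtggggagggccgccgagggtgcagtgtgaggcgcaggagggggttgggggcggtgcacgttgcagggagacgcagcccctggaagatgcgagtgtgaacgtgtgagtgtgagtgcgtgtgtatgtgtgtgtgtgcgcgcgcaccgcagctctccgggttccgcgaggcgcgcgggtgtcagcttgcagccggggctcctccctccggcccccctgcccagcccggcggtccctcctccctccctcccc
TCF7, upstream start (chr5:134115363-134115612): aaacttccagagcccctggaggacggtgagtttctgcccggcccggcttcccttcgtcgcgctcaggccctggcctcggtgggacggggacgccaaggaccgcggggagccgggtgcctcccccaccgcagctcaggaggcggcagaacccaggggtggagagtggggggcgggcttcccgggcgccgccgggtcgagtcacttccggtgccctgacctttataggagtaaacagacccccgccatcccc
TCF7, downstream start (chr5:134123368-134123617): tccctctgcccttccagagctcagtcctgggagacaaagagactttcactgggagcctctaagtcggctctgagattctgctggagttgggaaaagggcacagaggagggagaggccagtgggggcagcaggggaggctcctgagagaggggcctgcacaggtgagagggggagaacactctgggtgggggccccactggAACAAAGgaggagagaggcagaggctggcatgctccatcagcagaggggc
The SP5 stretch held 3 matches, which begin 148, 109 and 84 bases before the start. The downstream start of TCF7 had 1 match and the upstream start and TCF7L1 had 0. Of 35116 such stretches in the table, 12.0% held at least 1 match and 0.122% held at least 3. These shares were not matched for base content. G and C made up 45.6% of the SP5 stretch and 72.0% of that of TCF7L1. For the upstream and downstream starts of TCF7 they made up 70.8% and 62.0%. The set of stretches used here held 12 for 8 of the 10 genes. It held none for AXIN2 or ZNRF3, whose start sites were therefore not searched. The other match among the 12 was 1 before an internal start of TCF7L2, and 9 of the 12 had none. A match is a description of the letters and does not show binding. The RPKM table is of the older build hg19 (GRCh37) and has 1 row per gene, so transcripts from different starts of TCF7, TCF7L2 or RNF43 are summed in it.

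The values rested on 16242864 to 23263095 reads per library. On the first principal component over all tested genes, with 66.5% of the variance, the media lay apart. The second (17.2%) set AKIT replicate 2 apart, at 27.3 against -12.7 to -2.13 for the other 4 libraries. On the first component AKIT replicate 2 was the AKIT library nearest to E8 (-15.2, with -26.4 and -26.2 for replicates 1 and 3 and 33.8 and 34.0 in E8). Markers of the pluripotent state were present in every library, and the summed level of the 8 listed genes was lower in AKIT (3470 to 3492 RPKM) than in E8 (4105 and 4161). Of these 8, SOX2 (limma adjusted p = 0.0162) and PODXL (0.0162) fell, from 435 ± 21.8 to 254 ± 45.3 and from 1172 ± 62.1 to 764 ± 46.9 RPKM, and 0 rose. Without AKIT replicate 2, 2 fell and 1 rose, and without AKIT replicate 3, 1 fell and 0 rose. In the main fit the difference was below 0 for 5 of the 8. POU5F1 (328 ± 21.0 in E8, 349 ± 52.0 in AKIT), NANOG (8.15 ± 0.235, 10.5 ± 2.69) and DNMT3B (420 ± 6.11, 512 ± 47.2) had higher means in AKIT. Of the 8, only DNMT3B lay above both E8 libraries in all AKIT libraries (limma adjusted p = 0.142).

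Of the 10 genes, SP5 and TCF7 rose in AKIT and TCF7L1, TCF7L2 and CTNNB1 fell, by limma's moderated test at a Benjamini-Hochberg adjusted p under 0.05 over all genes tested. AXIN1, AXIN2, LEF1, RNF43 and ZNRF3 did not pass. Of all 14776 genes tested, 8.22% rose and 11.7% fell, or 20.0% in either direction, beside 2, 3 and 5 of these 10. The AKIT libraries lay all on 1 side of both E8 libraries for 7 of the 10 genes, and for 54.4% of all tested genes. The median difference was 0.20 over the 10 genes and -0.01 over all tested genes, on the log2(RPKM + 1) scale used for every difference here (AKIT minus E8, ± its standard error). That scale understates changes of genes with low values. Every mean is followed by its SD, over n = 3 libraries in AKIT and n = 2 in E8. The libraries are of bulk RNA, in which fewer cells of a type and less RNA per cell cannot be told apart.

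**Figure D1:**
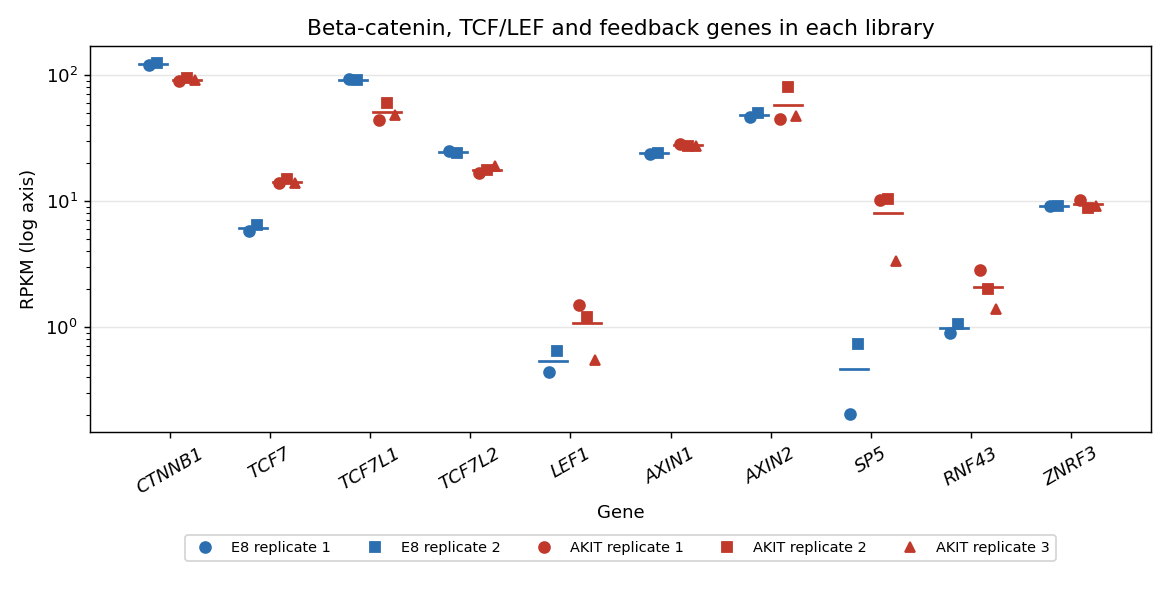
RPKM of the 10 genes (log axis) in each library, E8 in blue and AKIT in red, with the marker shape giving the replicate and the line the group mean. SP5 lies at 3.34 to 10.4 RPKM in AKIT against 0.204 and 0.727 in E8, while AKIT and E8 libraries overlap for LEF1, AXIN2 and ZNRF3.

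CTNNB1, the gene of beta-catenin, stood at 120.6 and 123 RPKM in E8 replicates 1 and 2 and at 89.6, 94.6 and 91.4 in AKIT replicates 1 to 3. The 3 AKIT libraries were within 1.06-fold of each other and all lay below both E8 libraries. The mean fell from 122 ± 1.95 to 91.9 ± 2.55 RPKM, a log2 difference of -0.41 ± 0.09 (limma adjusted p = 0.022). The level in AKIT was 0.753 of that in E8, and 96.7% of tested genes had a lower mean over the 5 libraries. Leaving out AKIT replicate 3 ended the call (limma adjusted p = 0.0512), as did leaving out E8 replicate 1 (0.193) or 2 (0.226). Over all alternatives the limma adjusted p ran from 0.00483 to 0.226.

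TCF7L1 was the TCF/LEF gene with the highest level in every library. It stood at 93.0 and 90.6 RPKM in E8 replicates 1 and 2 and at 44.1, 60.4 and 48.5 in AKIT replicates 1, 2 and 3. All AKIT libraries lay below E8, with AKIT replicate 2 nearest to it. The mean fell from 91.8 ± 1.75 to 50.98 ± 8.42 RPKM, a log2 difference of -0.85 ± 0.14 (limma adjusted p = 0.00916) that was -0.97 without AKIT replicate 2. With E8 replicate 1 or 2 left out the limma adjusted p was 0.0963 or 0.0877, the highest values over all alternatives (the lowest was 0.00064).

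TCF7L2, a factor that can activate or repress with its partners, stood at 25.1 and 23.9 RPKM in E8 and at 16.7, 17.6 and 19.0 in AKIT. The groups did not overlap. Its mean fell from 24.5 ± 0.887 to 17.8 ± 1.17 RPKM, a log2 difference of -0.45 ± 0.10 (limma adjusted p = 0.0241). Leaving out AKIT replicate 1 ended the call (limma adjusted p = 0.0554), as did leaving out E8 replicate 1 (0.22) or 2 (0.168), and the range over all alternatives was 0.00782 to 0.22.

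TCF7 moved the other way. It stood at 5.81 and 6.41 RPKM in E8 and at 13.9, 14.9 and 13.8 in AKIT replicates 1 to 3, where the libraries were within 1.08-fold of each other. The mean rose from 6.11 ± 0.421 to 14.2 ± 0.623 RPKM, 2.33 times the E8 level (log2 difference 1.10 ± 0.10, limma adjusted p = 0.00171). TCF7 passed in all 15 alternatives, and its limma adjusted p was at most 0.036 there.

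LEF1, the remaining member of the family, was the least abundant of the TCF/LEF genes in every library. It stood at 0.439 and 0.641 RPKM in E8 (32 and 43 reads). In AKIT replicates 1 and 2 it stood at 1.49 and 1.20, above both E8 libraries, and in AKIT replicate 3 at 0.549, between them (143, 115 and 44 reads). The difference of 0.41 ± 0.22 did not pass (limma adjusted p = 0.228), with a 95% interval from -0.11 to 0.93.

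Since RPKM is per length, the levels of the TCF/LEF genes can be summed within a library. The sum was 124 and 121 RPKM in E8 replicates 1 and 2 and 76.2, 94.1 and 81.8 in AKIT replicates 1 to 3, lower in every AKIT library. TCF7L1 made up 74.8% and 74.5% of the sum in E8 and 57.9%, 64.2% and 59.2% in AKIT. TCF7 made up 4.67% and 5.28% in E8 and 18.3%, 15.9% and 16.9% in AKIT. The share of TCF7L2 overlapped between the media, at 20.2% and 19.7% in E8 and 21.9%, 18.7% and 23.2% in AKIT, though its level fell. LEF1 was at most 1.96% of the sum in any library. There were 16.0 and 14.1 RPKM of TCF7L1 for each RPKM of TCF7 in E8, and for AKIT replicates 1 to 3 the ratio was 3.17, 4.04 and 3.51. These shares rest on the values tested above gene by gene and were given no test of their own. TCF7L1's share was lower in AKIT by 12.9 to 16.1 percentage points whichever library was left out.

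**Figure D2:**
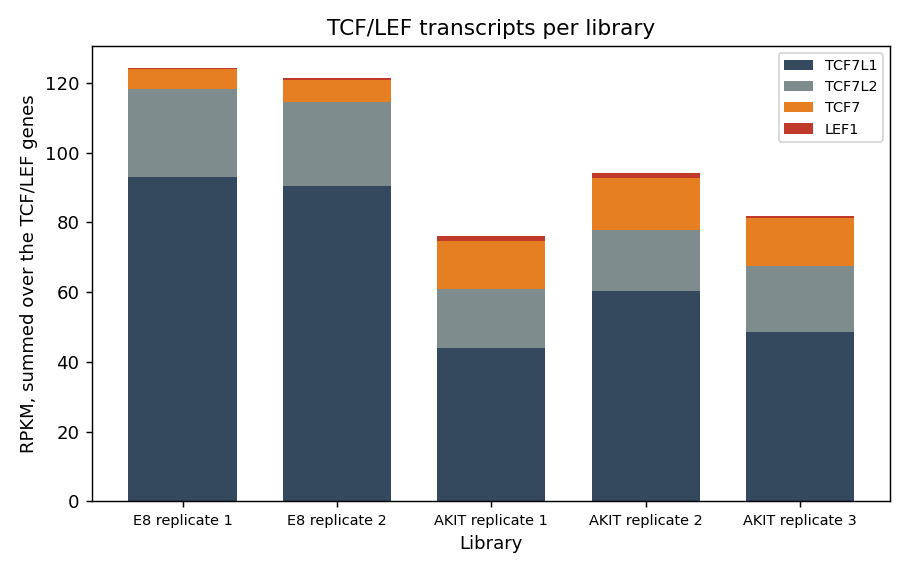
Stacked RPKM of TCF7L1, TCF7L2, TCF7 and LEF1 in each of the 5 libraries, with the axis from 0. The dark TCF7L1 block is 93.0 and 90.6 RPKM in E8 and 44.1 to 60.4 in AKIT, and the orange TCF7 block is 5.81 and 6.41 RPKM in E8 and 13.8 to 14.9 in AKIT.

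SP5, a zinc finger factor induced by beta-catenin that limits the expression of other Wnt targets, had the largest difference of the 10 genes and carries the 3 motif matches shown above. It stood at 0.204 and 0.727 RPKM in E8 replicates 1 and 2 and at 10.2, 10.4 and 3.34 in AKIT replicates 1, 2 and 3. All AKIT libraries lay above E8, and the highest AKIT library was 3.10 times the lowest, replicate 3. The values rested on 7 and 23 reads in E8 and on 463, 469 and 126 in AKIT, and by exact Poisson intervals (95%, counting error only) E8 replicate 1 lay between 0.0819 and 0.42 RPKM and AKIT replicate 3 between 2.78 and 3.97. The mean rose from 0.465 ± 0.370 to 7.97 ± 4.02 RPKM, 17.1 times the E8 level (11.0 times without E8 replicate 1, 39.2 times without replicate 2 and 14.6 to 22.1 times without 1 AKIT library; log2 difference 2.51 ± 0.42, limma adjusted p = 0.00995). With E8 replicate 1 or 2 left out the limma adjusted p was 0.0891 or 0.0571, within 0.00243 to 0.0891 over all alternatives. The size depends on how low values are treated, with a log2 difference of 3.84 at a pseudocount of 0.1 and of 4.20 by voom on recovered reads.

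AXIN2, a scaffold of the degradation complex and a widely used readout of beta-catenin, did not pass. It stood at 46.1 and 50.2 RPKM in E8 and at 44.8, 79.99 and 47.5 in AKIT replicates 1, 2 and 3. AKIT replicates 1 and 3 lay in or below the E8 range, and AKIT replicate 2 alone lay above it. The log2 difference was 0.20 ± 0.24 (limma adjusted p = 0.583), with a 95% interval from -0.36 to 0.76, and it turned to -0.06 without AKIT replicate 2. AXIN1, the constitutive scaffold, stood at 23.6 and 24.1 RPKM in E8 and at 28.3, 27.5 and 27.4 in AKIT, with no overlap between the groups. Its difference of 0.21 ± 0.09 did not pass over all genes (limma adjusted p = 0.134), with a 95% interval from 0.0031 to 0.42. For each RPKM of AXIN1 there were 1.95 and 2.09 RPKM of AXIN2 in E8 and 1.58, 2.91 and 1.73 in AKIT, where replicate 2 again stood alone above E8.

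RNF43 and ZNRF3 encode related membrane ubiquitin ligases that remove Frizzled receptors from the cell surface. RNF43 stood at 0.895 and 1.05 RPKM in E8 and at 2.82, 2.0 and 1.39 in AKIT replicates 1 to 3, all above E8. The difference of 0.61 ± 0.21 did not pass (limma adjusted p = 0.0799). It passed in 3 of 14 alternatives, at 0.0354 with array weights, 0.0457 without AKIT replicate 3 and 0.0459 with quantile normalization. ZNRF3 stood at 9.04 and 9.19 RPKM in E8 and at 10.3, 8.81 and 9.14 in AKIT, with AKIT replicate 1 above both E8 libraries, replicate 2 below both and replicate 3 between them. Its difference was 0.04 ± 0.11 (limma adjusted p = 0.832), with a 95% interval from -0.22 to 0.30, and it turned to -0.02 without AKIT replicate 1.

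**Figure D3:**
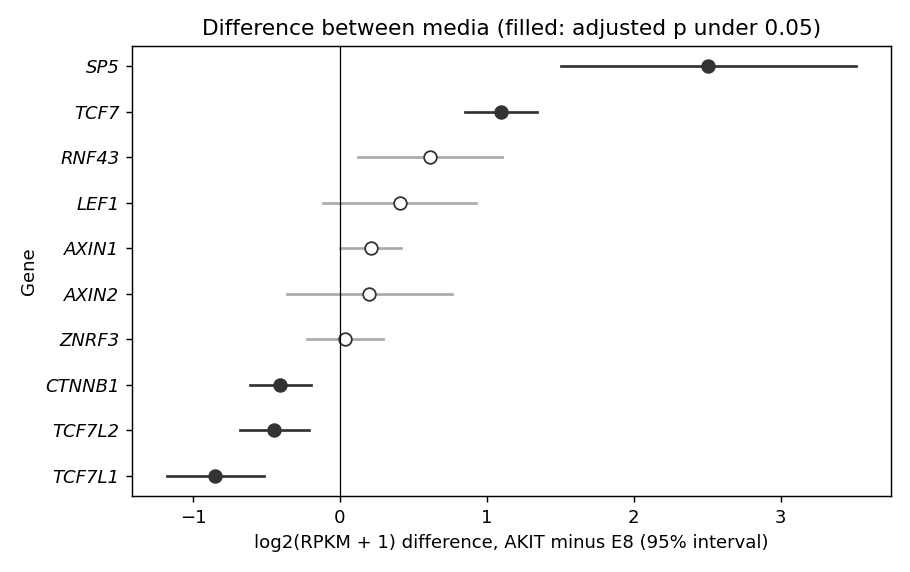
Difference of log2(RPKM + 1), AKIT minus E8, for each of the 10 genes, with its 95% interval as a bar and filled points for an adjusted p under 0.05. SP5 (2.51) and TCF7 (1.10) lie to the right of 0 and TCF7L1 (-0.85), TCF7L2 (-0.45) and CTNNB1 (-0.41) to the left, while the intervals of LEF1, AXIN2 and ZNRF3 include 0.

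By mean level in E8 the order was CTNNB1, TCF7L1, AXIN2, TCF7L2, AXIN1, ZNRF3, TCF7, RNF43, LEF1 and SP5. The ranges of neighbours overlapped for TCF7L2 with AXIN1 and for LEF1 with SP5. In AKIT the order was CTNNB1, AXIN2, TCF7L1, AXIN1, TCF7L2, TCF7, ZNRF3, SP5, RNF43 and LEF1. There the ranges of neighbours overlapped for AXIN2 with TCF7L1, for ZNRF3 with SP5 and for RNF43 with LEF1. SP5 was thus the lowest of the 10 in E8 by mean and above RNF43 and LEF1 in every AKIT library.

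Within AKIT the genes did not vary alike. SP5, LEF1 and RNF43 were lowest in replicate 3, AXIN2 and TCF7L1 were highest in replicate 2, and TCF7, CTNNB1 and AXIN1 spread by at most 1.08-fold. The listed primitive streak and mesendoderm markers were all lowest in replicate 3 among the AKIT libraries (8 of 8). The share of all genes lowest in that library was not counted. For some markers the gap was small, as for TBX6, at 1.66 RPKM there and 1.67 in replicate 1. The summed level of the 8 markers was 18.2, 14.4 and 7.63 RPKM in AKIT replicates 1 to 3 and 10.6 and 9.99 in E8. T (brachyury), a defining marker of the streak and itself a beta-catenin target, was at 1.11, 0.837 and 0.348 RPKM in AKIT and 0.045 and 0.0489 in E8, and MESP1 was at 0 in AKIT replicate 3. T and MIXL1 lay above both E8 libraries in all AKIT libraries, 2 of the 8 markers. Of the 4 markers past the filter on low values, 0 passed in the main limma fit and in voom, and 1 had an unadjusted p under 0.05. From this list 1 marker rose with array weights, quantile normalization or the replicate block, and 1 without AKIT replicate 3. The 6 neuroectoderm markers were lowest in replicate 3 as well, with sums of 7.03, 3.93 and 0.615 RPKM in AKIT and 1.51 and 1.58 in E8, and LHX2 at 0 in AKIT replicate 3 and in E8. The 6 endoderm markers summed to 10.4, 7.77 and 5.64 RPKM in AKIT and 2.67 and 2.77 in E8, with 4 of them above E8 in all AKIT libraries. Over all tested genes 54.4% had all AKIT libraries on 1 side of both E8 libraries. The share above E8 alone was not counted, so neither this count nor that of the streak markers has a like share beside it. FOXA2, a factor of definitive endoderm, rose from 0.650 and 0.424 RPKM in E8 to 2.11, 3.75 and 2.53 in AKIT, a log2 difference of 1.28 ± 0.20 (limma adjusted p = 0.00778). Its call ended without either E8 library. FOXA2 was 1 of 2 endoderm markers past the filter and, in the main fit, the only listed marker of any cell type to rise. The other, CXCR4, did not pass there (0.88 ± 0.35, limma adjusted p = 0.12, unadjusted p = 0.0403). With array weights 2 endoderm markers rose. The part of other cell types in the levels of SP5, LEF1 and RNF43 was not tested.

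Neural crest markers (7 genes, 50.2 to 63.2 RPKM in AKIT and 149.9 and 164 in E8), trophoblast and amnion markers (8 genes, 29.6 to 50.2 and 52.1) and fibroblast markers (8 genes, 209 to 273 and 366 to 368) had lower sums in every AKIT library. Single genes carry much of these sums (single markers here and above were named after their values were seen). FOXD3 of the neural crest list fell from 99.4 ± 8.03 to 21.2 ± 8.08 RPKM, IGFBP3 of the trophoblast list from 25.2 ± 1.46 to 8.82 ± 4.30, and THY1 of the fibroblast list from 274 ± 1.21 to 168 ± 30.4. FOXD3 and THY1 had these levels in E8 although TFAP2B of the neural crest list and LUM and DCN of the fibroblast list were at 0 there. Whether the lower sums reflect fewer cells of these types was not tested. Against the direction of the sums, 1 of 7, 3 of 8 and 2 of 8 markers lay above both E8 libraries in all AKIT libraries, namely TFAP2B, then TFAP2C, HAND1 and CGA, then COL3A1 and LUM. The share of all genes above E8 in this way was not counted. HAND1 stood at 6.31, 2.79 and 1.78 RPKM in AKIT and 1.04 and 0.921 in E8, TFAP2C at 19.8, 30.9 and 17.3 against 13.3 and 15.1, and COL3A1 at 5.63, 2.15 and 0.141 against 0.0413 and 0. Of these genes 5 were tested, and none passed in the main limma fit. HAND1 (0.0199) and TFAP2C (0.0342) had an unadjusted p under 0.05 there. Of the trophoblast and amnion list, 3 rose with array weights, 2 without AKIT replicate 2 or with the replicate block, and 1 without AKIT replicate 3. Of the fibroblast list, 2 rose without AKIT replicate 3 or with the replicate block. No neural crest marker rose in any alternative. Among these lists TFAP2B, CGA, LUM and DCN were at 0 in both E8 libraries and highest in AKIT replicate 1, at 2.40, 1.99, 5.81 and 0.754 RPKM.

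The other genes of the pathway were read from lists. Of 17 tested genes of the degradation complex and Dishevelled, 2 rose and 2 fell, or 3 and 5 at an unadjusted p under 0.05 in limma (median difference -0.03). Over all tested genes 16.3% were higher and 19.7% lower in AKIT at that unadjusted p, and 8.39% rose and 12.8% fell by voom. The list's counts were 3 and 4 without AKIT replicate 2, 3 and 5 with array weights, 0 and 1 without AKIT replicate 1 or 3, and 0 and 0 without either E8 library. CSNK1E, a casein kinase that acts on Dishevelled, fell from 86.5 ± 1.89 to 55.1 ± 5.94 RPKM. Its relative CSNK1D, named after its values were seen, fell by 0.46 on the log2 scale (limma adjusted p = 0.039). The call of CSNK1D ended without AKIT replicate 1, AKIT replicate 3 or either E8 library. It also ended with the replicate block and in limma without a trend. FAM123A, now AMER2, which binds APC, rose from 0.785 ± 0.256 to 1.73 ± 0.0736, and DVL2, a Dishevelled gene, from 14.3 ± 2.27 to 20.4 ± 1.32. The calls of FAM123A and DVL2 ended when AKIT replicate 1, AKIT replicate 3 or either E8 library was left out. Both also ended with the replicate block, and that of DVL2 with no filter. GSK3B, a target of the inhibitor in AKIT and also named after its values were seen, had 19.8 ± 0.49 RPKM in E8 and 19.8 ± 0.961 in AKIT.

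Of 22 tested nuclear partners of beta-catenin and TCF factors, 6 fell and 0 rose in limma, or 7 and 3 at an unadjusted p under 0.05 and 6 and 1 by voom (median -0.07). In limma 7 fell and 2 rose without AKIT replicate 2 and with array weights, 4 fell and 0 rose without AKIT replicate 1, and 1 or 0 fell without E8 replicate 1 or 2. BCL9, which links beta-catenin to PYGO proteins, fell from 32.6 ± 0.87 to 17.3 ± 1.66 RPKM, a log2 difference of -0.88 ± 0.11 (limma adjusted p = 0.00344). Its paralog BCL9L fell from 70.02 ± 1.18 to 45.4 ± 5.27, a call that ended with the replicate block. TBL1X, a subunit of a corepressor complex that also binds beta-catenin, fell from 26.3 ± 1.83 to 15.2 ± 0.303. The other 3 that fell, named after their values were seen, were CTNNBIP1, which blocks the binding of beta-catenin to TCF (-0.54), AES, a short Groucho-family protein (-0.48), and NLK, a kinase of TCF/LEF factors (-0.38). Their limma adjusted p was 0.0089, 0.025 and 0.0349. With the replicate block only BCL9 and TBL1X of the list fell, so the calls of these 3 ended there. BCL9, BCL9L and TBL1X were among the 4 that fell without AKIT replicate 1, so not all of these 3 did. 

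Of 20 listed beta-catenin targets other than the 10 genes, 14 were tested. Of the 14, 3 fell and 0 rose in limma, or 4 and 1 at an unadjusted p under 0.05 and 3 and 0 by voom (median -0.11). The rest did not pass the filter on low values. Among the rest T, LGR5 and CDX1 lay above both E8 libraries in all AKIT libraries, FGF20 lay below both, and DKK4 and CDX2 overlapped with E8. In limma 5 fell and 1 rose without AKIT replicate 2 and with array weights, 1 fell and 1 rose without AKIT replicate 3, and 1 fell and 0 rose without AKIT replicate 1 or either E8 library. BAMBI, a pseudoreceptor that BMP signalling also induces, fell from 42.8 ± 3.66 to 11.97 ± 0.192 RPKM. MYC, a growth regulator, fell from 159 ± 5.02 to 89.9 ± 30.5, with AKIT replicate 2 the highest AKIT library at 125 against 70.2 and 74.5. NOTUM, a secreted enzyme that inactivates Wnt ligands, fell from 1.74 ± 0.0465 to 0.739 ± 0.309. The calls of MYC and NOTUM ended without AKIT replicate 1, AKIT replicate 3 or either E8 library. They also ended with the replicate block, with no filter and with quantile normalization. MYC also did not pass in limma without a trend, nor NOTUM at the smaller pseudocounts. SP5 rose while these 3 fell, and AXIN2, in the same class of genes, did not pass. Of the 14 tested, 9 had a difference below 0. The largest difference above 0 was that of MIXL1, named after its values were seen (0.79 ± 0.25, limma adjusted p = 0.0681).

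Of 10 tested cadherins and catenins of cell contacts, 3 fell and 0 rose in limma, or 4 and 0 at an unadjusted p under 0.05 and 3 and 0 by voom (median -0.17). Without either E8 library 0 fell in limma. JUP (plakoglobin), the closest relative of beta-catenin, fell from 62.3 ± 1.19 to 36.9 ± 3.38 RPKM, a log2 difference of -0.74 ± 0.10 beside -0.41 ± 0.09 for CTNNB1. CDH2, N-cadherin, fell from 15.9 ± 1.02 to 8.63 ± 1.84 and CTNNA2, a neural alpha-catenin, from 2.35 ± 0.248 to 0.716 ± 0.218. CDH1, E-cadherin, named after its values were seen, had 139 ± 3.40 RPKM in E8 and 151 ± 11.3 in AKIT (0.12 ± 0.10).

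Of 5 tested genes among R-spondins, LGR receptors and the Wnt co-receptors LRP5 and LRP6, 1 rose and 1 fell (median -0.35), or 1 and 2 without AKIT replicate 2 and with array weights. LGR4, through which R-spondins restrain RNF43 and ZNRF3, fell from 67.8 ± 0.47 to 47.3 ± 5.18 RPKM, and LRP6 rose from 13.1 ± 0.51 to 17.6 ± 1.35. Both calls ended without AKIT replicate 1, without either E8 library and with the replicate block, and that of LRP6 also without AKIT replicate 3. Of 6 tested SP factors other than SP5, 0 passed in limma or voom and 0 had an unadjusted p under 0.05 (median -0.05), but 2 fell in limma without AKIT replicate 2 and with array weights. The smallest p-values were those of SP3 (0.18 ± 0.09) and SP8 (-0.44 ± 0.19), which is also on the target list. SP8 was 1 of the 2 that then fell (limma adjusted p = 0.0106 and 0.0216), and its difference ran from -0.62 to -0.30 over all alternatives. The other was SP2, named after its values were seen. With a single E8 library, whichever was left out, BAMBI passed, TBL1X passed without E8 replicate 1 only, and the calls of the other genes named by size from these lists ended.

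**Figure D4:**
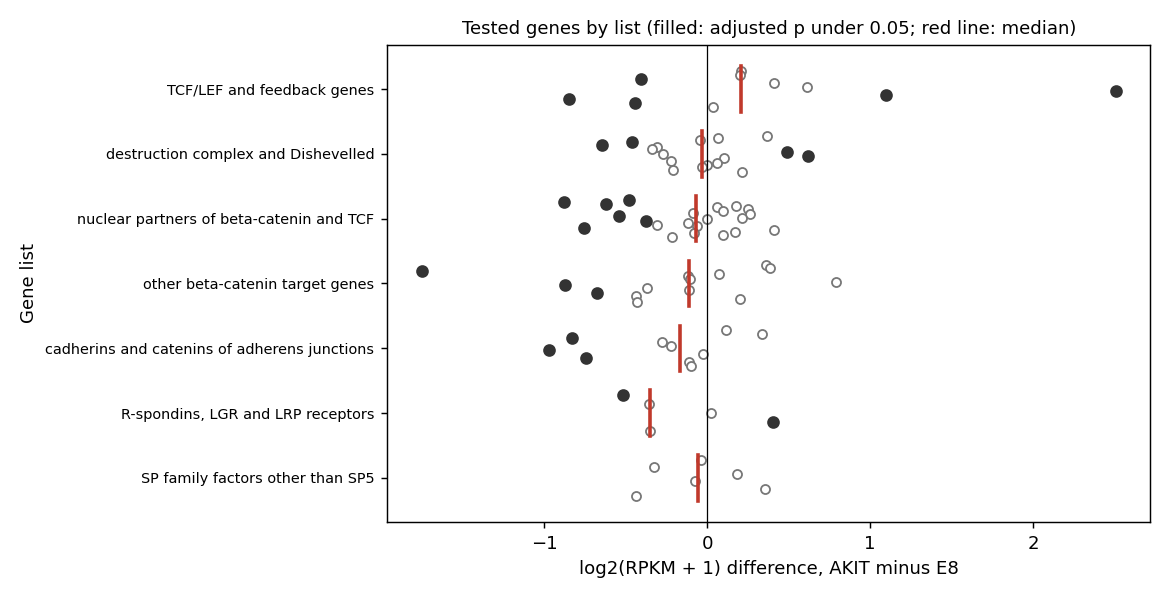
Difference of log2(RPKM + 1), AKIT minus E8, of each tested gene by list, with filled points for an adjusted p under 0.05 and a red line at the list's median. The filled points of the 10 genes lie on both sides of 0, and those of the nuclear partners, the other targets and the junction genes lie below 0.

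The genes most like SP5 over the 5 libraries, by Pearson's r of log2(RPKM + 1) among 9473 genes that averaged 5 RPKM or more, were DAAM1 (0.998), a Dishevelled-binding formin, PFKL (0.998), a phosphofructokinase, and USP31 (0.997). DAAM1 stood at 7.70, 7.87 and 6.08 RPKM in AKIT replicates 1 to 3 and 4.17 and 4.47 in E8, so that it shared the lower value in AKIT replicate 3 with SP5 at a smaller range. Those most like TCF7L1 were STK35 (0.9999), SIAH1 (0.9996), a ubiquitin ligase, and MED24 (0.999), a Mediator subunit. STK35 stood at 30.1, 33.3 and 31.1 RPKM in AKIT and 38.6 and 38.2 in E8. These likenesses are descriptions over 5 libraries in which the medium is the main difference, and 196 genes for SP5 and 531 for TCF7L1 had an r of at least 0.95.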

How the data were processed

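RNA sequencing libraries of KhES-1 cells were compared between AKIT (n = 3) and E8 (n = 2). The authors deposited RPKM values for 23346 genes. Builds hg19 and GRCh37 are listed per the submitters' processing notes. How reads were aligned and counted, the annotation and strand use were not given in the sources used here. Columns were matched to samples by title. E8 replicate 3 was not analysed here, so the fit planned for all samples used 5 of 6. Reads per gene were recovered from the whole-number steps of low RPKM values (tolerance 0.02 reads). All 19892 genes above 0 (100%) gave whole reads. Chi-square per gene was 3.48 between the E8 libraries and 18.2 to 35.4 between AKIT libraries, above counting noise alone (about 1), so no libraries were merged as repeats. This does not show that they came from separate cultures.

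Values were tested with limma 3.58.1 (R 4.3.3, intensity trend) on log2(RPKM + 1), two-sided, keeping genes that averaged 0.5 RPKM or more, and adjusted by Benjamini-Hochberg over 14776 genes at 0.05. The fit was also run on reads simulated with a single spread for all libraries. The real AKIT libraries differed more among themselves than those of E8, so that run does not bear on the calls here. Alternatives tried were quantile normalization and median-of-ratios scaling, pseudocounts (0.1, 0.5), filters (none, or 2 RPKM), no trend, array weights, a replicate block and each library left out. Voom on recovered reads was added after seeing the data. The 10 genes and the lists were chosen with earlier results of these data known. All 10 were named, with up to 3 called genes from each other list by size of difference, or the 2 with the smallest p where none passed. For the largest rise and fall among the 10, the 3 genes of highest Pearson r were named.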

Additional observations from a re-analysis of the deposited data

How the results depend on the processing

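Of the 10 genes, 2 rose and 3 fell, and in all 1214 genes rose and 1736 fell. With each library left out in turn, 1 to 3 of the 10 rose and 0 to 3 fell, and 142 to 2132 of all genes rose and 250 to 2619 fell. With a single E8 library, left to vary like the AKIT libraries, only TCF7 of the 10 passed. With array weights 2269 genes rose and 2740 fell. With the replicate block 492 rose and 824 fell, and 1 of the 10, TCF7L1, fell (limma adjusted p = 0.043), while CTNNB1 (0.0942) and TCF7L2 (0.0692) did not pass. The numbers paired only 2 libraries per medium, and deviations of same-numbered libraries correlated at -0.00128 and 0.0254, so the block rests on a shared number alone. By construction it leaves AKIT replicate 3 out of the difference. Otherwise the causes of these changes were not tested. Over all alternatives in which the 10 genes were tested, 131 of their values kept direction and side of the threshold, 12 lost a call, 3 gained one and 2 reversed, namely AXIN2 without AKIT replicate 2 and ZNRF3 without AKIT replicate 1. With each library left out in turn the log2 difference ran from -0.059 to 0.352 for AXIN2 and from -0.021 to 0.079 for ZNRF3. TCF7 passed in all 15. LEF1 and RNF43 could not be tested at a minimum mean of 2 RPKM. Depth limits SP5 and LEF1 in E8, with 7 to 43 reads per library.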
